A study of Bos taurus with 8 samples.

Results

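The genes described are 6 that code for proteins of the milk fat globule membrane: BTN1A1, XDH, PLIN2, MFGE8, MUC1 and CIDEA. They were chosen by name, by a rule that uses no measured value but was written with earlier results of these data known, and every probe set whose annotation names only that symbol was taken. This gave 7 of the 24016 probe sets tested, 2 for XDH and 1 for each of the others, and all 6 genes were found. A probe set is a group of short probes for 1 transcript, and its value here is a log2 signal. Expression was measured in lactating mammary gland biopsies of 4 Holstein cows (Bos taurus), 1 array per biopsy and 8 in all. Each cow was sampled at 12 h since milk removal, called full, and at 0 h, called empty. The question was how milk held in the gland alters gene expression, so each full biopsy was set against the empty biopsy of its cow. The sources used here give neither the order of the biopsies nor their place in the udder. Whatever else changed from one sampling to the other cannot be told apart from the state of the gland.

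Milk fat leaves the secretory epithelial cell as a droplet wrapped in the cell's apical membrane. A cytoplasmic droplet coated by PLIN2 reaches the apical surface, where the membrane glycoprotein BTN1A1 binds the enzyme XDH, and the droplet buds off enclosed in membrane. MFGE8 and MUC1 are carried on the globule surface, and CIDEA acts earlier, promoting the fusion of small droplets into larger ones. These are protein functions, whereas the arrays measured transcripts. No sequence of the members was used here.

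All 4 cows had the luminal milk genes near the top of the array range, with PAEP, the whey protein beta-lactoglobulin, at a mean of 14.39 in full and 14.38 in empty gland. PAEP was the highest of the probe sets tested in every library, where a difference between the states can hardly show. The full libraries of cow 2 and of cow 4 were unlike the other arrays. Their median correlations with the other 7 arrays were 0.969 and 0.975, against 0.986 or 0.987 for the other 6 libraries. In the full library of cow 2 the 5' signal of the GAPDH control fell furthest short of its 3' signal, with a log2 difference of -3.31 against -2.13 to -1.53 in the other 7 libraries. This difference is a sign of RNA breakage or incomplete transcription. The precision is limited by the number of arrays.

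The mean signal was lower in full than in empty gland for each of the 7 member probe sets, by 0.03 to 0.44 on the log2 scale, and none of these differences passed the test. For BTN1A1, MUC1 and CIDEA the differences lay in cows 2 and 4. The brighter XDH set differed most in cow 3 (-0.08). MFGE8 differed most in cow 2 (-0.25), and by nearly as much in cow 1 (-0.09) as in cow 4 (-0.11). The mean signal of the 6 members, with the brighter probe set for XDH, was lower in full gland in cow 2 (-0.44) and cow 4 (-0.35). In cow 1 the difference was -0.001 and in cow 3 it was -0.004. By the median of the 6 genes the differences were 0.02, -0.26, -0.007 and -0.35 in cows 1 to 4, so that cow 4 was the lowest. CIDEA and MUC1 differed most, and XDH least. All tests of full against empty gland used limma with cow as a block and Benjamini-Hochberg adjustment over all 24016 probe sets. The adjusted p was 0.993 for each member probe set. Of the 7 member probe sets 0 passed an adjusted p of 0.05, and 0% of all probe sets did. At an unadjusted p under 0.05 there were 0 members, where 2.5% of all probe sets lay (600 of 24016).

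**Figure D1:**
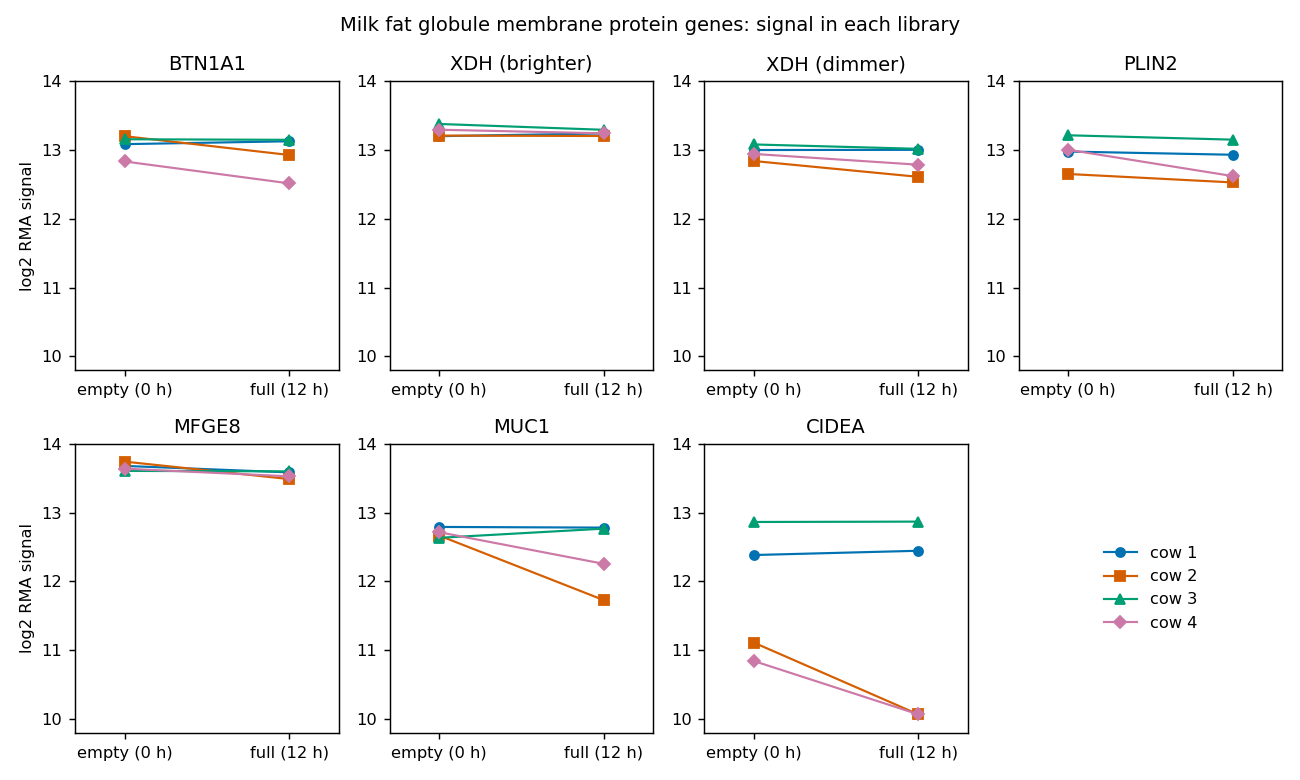
Log2 signal of the 7 member probe sets (vertical axis) in empty gland at 0 h and full gland at 12 h, with a line for each of the 4 cows. CIDEA separates cows 1 and 3 (12.38 to 12.87) from cows 2 and 4 (10.07 to 11.11), and MUC1 is lowest in the full library of cow 2, at 11.73.

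BTN1A1, butyrophilin, is a membrane protein of the immunoglobulin superfamily whose cytoplasmic tail binds XDH, and it is required for normal milk fat secretion. Its log2 signal in empty gland was 13.08, 13.20, 13.15 and 12.83 in cows 1 to 4. In full gland it was 13.13, 12.93, 13.15 and 12.51. The full signal was close to the empty one in cows 1 and 3 and lower in cows 2 and 4, and the groups overlapped. The mean difference was -0.14 ± 0.09 (SE, limma's moderated standard error over 4 cows, given with ± throughout), with a 95% interval of -0.36 to 0.08.

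XDH, xanthine oxidoreductase, is an enzyme of purine breakdown that also has a structural part in the globule membrane. Its brighter probe set was the steadiest member, at 13.20, 13.21, 13.38 and 13.29 in empty and 13.24, 13.20, 13.29 and 13.24 in full gland. The 2 groups overlapped almost wholly. The difference was -0.03 ± 0.07, with a 95% interval of -0.19 to 0.14. The dimmer probe set was at 13.00, 12.84, 13.08 and 12.94 in empty and 13.00, 12.61, 13.02 and 12.78 in full gland. It differed by -0.11 ± 0.07, and both probe sets were lower in 3 of the 4 cows. They parted most in cow 2, where the brighter set differed by -0.006 and the dimmer by -0.23. The name of the brighter set marks probes that more than 1 transcript can share.

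PLIN2, perilipin 2, coats cytoplasmic droplets and shields their triglyceride from lipases. The signal was 12.98, 12.65, 13.21 and 13.00 in empty and 12.93, 12.53, 13.15 and 12.62 in full gland. It was lower in full gland in all 4 cows, as were 5.97% of all probe sets. The within-cow differences were -0.05, -0.12, -0.06 and -0.38 in cows 1 to 4, and the groups overlapped. The mean difference was -0.15 ± 0.08, with a 95% interval of -0.36 to 0.05.

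MFGE8, lactadherin, is a secreted protein that binds phosphatidylserine and integrins and helps phagocytes to clear dying cells. Its signal was 13.68, 13.74, 13.61 and 13.64 in empty and 13.58, 13.49, 13.60 and 13.53 in full gland. It was lower in full gland in all 4 cows, and it was the 1 member probe set whose groups did not overlap, a pattern of 0.812% of all probe sets. The highest full value, 13.599, lay just below the lowest empty value, 13.605. The difference was -0.12 ± 0.07, with a 95% interval of -0.30 to 0.06.

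MUC1, a large and heavily glycosylated mucin that spans the apical membrane, had a narrow spread in empty gland and a wide one in full gland. In empty gland it was at 12.79, 12.67, 12.63 and 12.71, with an SD of 0.07 (n = 4). In full gland it was at 12.78, 11.73, 12.77 and 12.26, with an SD of 0.50 (n = 4). The signal in cow 2 was 1.92-fold lower in full than in empty gland, and in cow 4 it was 1.38-fold lower. Cow 3 went the other way, by 0.13. The mean difference was -0.32 ± 0.18, with a 95% interval of -0.77 to 0.14. The library with the lowest MUC1 signal was the one with the widest gap between the 5' and 3' GAPDH signals. That library was also the lowest for PLIN2 (12.53), MFGE8 (13.49), the dimmer XDH set (12.61) and CIDEA (10.068, with 10.069 in full gland of cow 4). It was not the lowest for BTN1A1 or the brighter XDH set. The cause of these low signals was not tested. In the full library of cow 4, the next lowest for MUC1, the GAPDH gap was -1.71 on the log2 scale. With that gap as a covariate, an alternative chosen after seeing the data, the MUC1 difference was -0.25 (limma adjusted p = 0.924, and 0.832 to 1.00 over all alternatives for this gene).

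CIDEA, the member that promotes droplet fusion, varied most between libraries, over a 6.97-fold range. Its signal was 12.38, 11.11, 12.86 and 10.85 in empty and 12.45, 10.07, 12.87 and 10.07 in full gland. Cows 1 and 3 had nearly the same signal in both states, with log2 differences of 0.06 and 0.005. In cow 2 it was 2.06-fold lower in full gland, and in cow 4 it was 1.71-fold lower, the cows whose empty signal was already low. The mean difference was -0.44 ± 0.21, with a 95% interval of -0.95 to 0.08. With 1 pair of libraries per cow, whether the difference itself varies between cows cannot be tested.

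**Figure D2:**
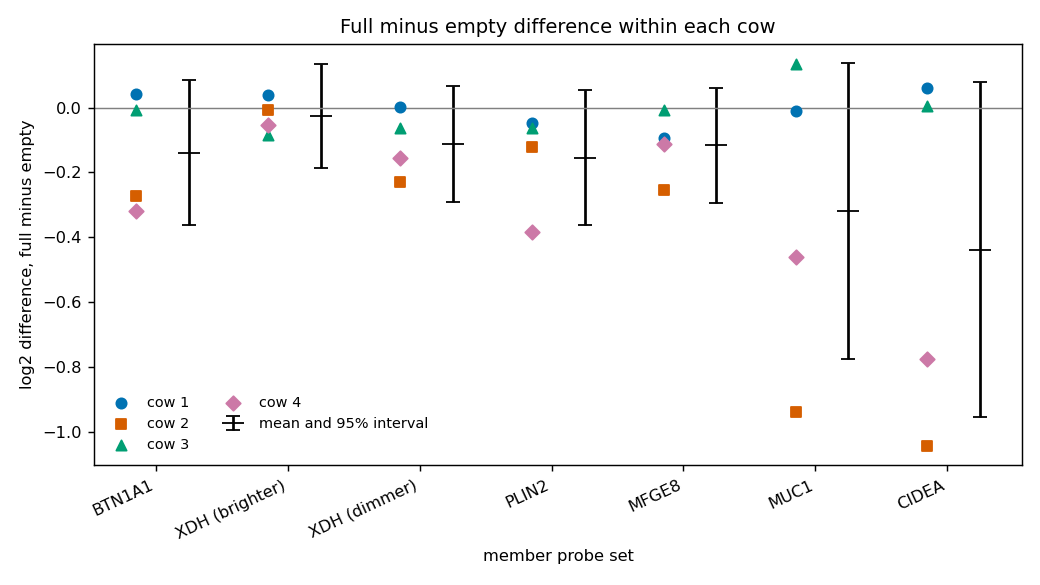
Log2 difference of full minus empty gland (vertical axis) for each member probe set, with a symbol for each cow and, to its right, the mean with its 95% interval from limma (n = 4 cows). All 7 intervals include 0, and the lowest symbols are cow 2 for MUC1 (-0.94) and CIDEA (-1.04).

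Over the 6 genes the median difference was -0.15, and it was -0.0003 over all probe sets tested. All 7 member probe sets had a lower mean in full gland, as had 50.1% of all probe sets. Among the 344 probe sets with a mean signal above 12, as all members but CIDEA had, the median was -0.03, and 64.8% were lower. The medians of these bright probe sets were 0.003, -0.10, 0.005 and -0.04 in cows 1 to 4. Those of the 6 genes were 0.02, -0.26, -0.007 and -0.35, so lower values in cows 2 and 4 were not particular to the members. Lower values in 3 or 4 cows were seen for 6 of the 7 member probe sets, for 29.8% of all and for 39.5% of these bright ones. The libraries are shared by all genes, so the members are not separate evidence of a direction. Without cows 2 and 4 the differences were 0.02 for BTN1A1, -0.02 and -0.03 for XDH, -0.06 for PLIN2, -0.05 for MFGE8, 0.06 for MUC1 and 0.03 for CIDEA. The direction of BTN1A1, MUC1 and CIDEA therefore rested on those 2 cows. Without cow 2 alone the MUC1 difference was -0.11 and that of CIDEA -0.24. Without cow 4 alone those of BTN1A1 and PLIN2 were each -0.08.

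The members also differed in how much they varied between the 4 animals, measured on the mean of a cow's 2 libraries. The cow means of CIDEA spanned 2.41 on the log2 scale, or 5.31-fold, and only 0.266% of probe sets had as wide a span. Its 2 highest cows were 3 (12.87) and 1 (12.41), and its 2 lowest were 2 (10.59) and 4 (10.46). The pattern was present in the empty libraries alone, which spanned 4.05-fold. The span was 0.59 for PLIN2, 0.59 for MUC1, 0.48 for BTN1A1, 0.13 for the brighter XDH set and 0.05 for MFGE8, against a median of 0.28 over all probe sets. PLIN2 had the same order at the top as CIDEA, with cow 3 at 13.18 and cow 1 at 12.95, but its lowest was cow 2 (12.59). BTN1A1 had the full order of CIDEA, with cows 3 (13.15), 1 (13.10) and 2 (13.06) close together and cow 4 lowest (12.67).

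An F-test in the same limma fit asked whether the cow terms differed, that is, whether these 4 animals differed by more than the spread that remains within them. Of the 7 member probe sets 0 passed an adjusted p of 0.05, and 0.437% of all probe sets did. CIDEA came nearest, with an adjusted p of 0.0658, followed by PLIN2 (0.242) and BTN1A1 (0.306). At an unadjusted p under 0.05 these 3 genes lay below the threshold, as did 14.8% of all probe sets, with 4.08e-04 for CIDEA in limma's F-test. CIDEA passed in several other fits, each of which also called more of all probe sets. Its adjusted p was 0.0277 with median centring (0.866% of all probe sets called), 0.0294 among the brighter probe sets (0.941%), 0.0137 with an intensity trend and robust prior (1.03%) and 0.0277 with array weights (1.19%). It was 0.043 with the GAPDH covariate (0.704%) and 0.0478 without cow 2 (0.545%). Without cows 2 and 4 it was 0.0292, in a fit that called 7.58% of all probe sets. That fit compares only cows 1 and 3, so it cannot bear on their separation from cows 2 and 4. CIDEA did not pass with repeated quantile normalization (0.0646), without cow 1 (0.125), without cow 3 (0.265) or without cow 4 (0.196).

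**Figure D3:**
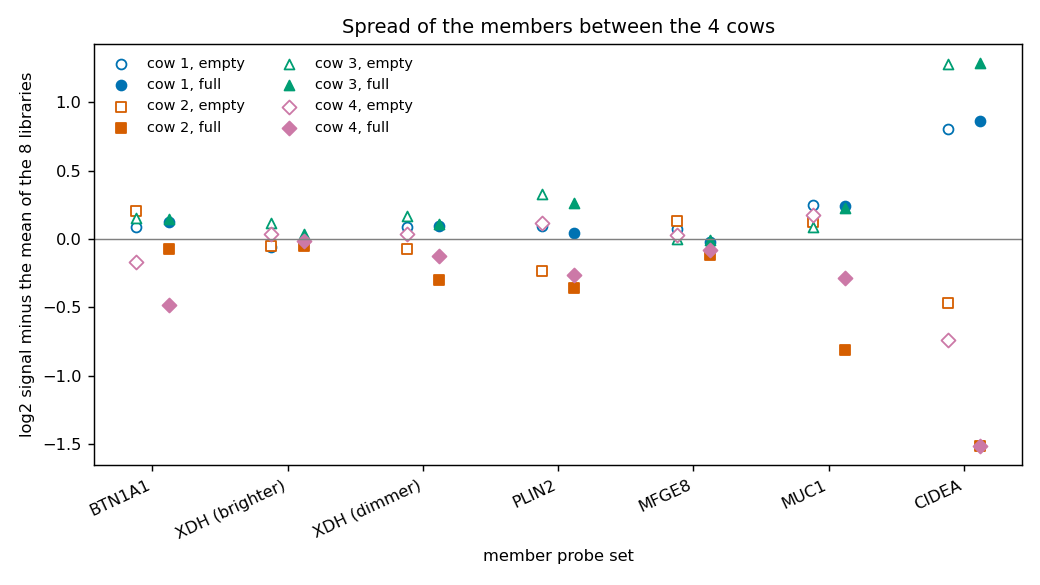
Log2 signal of each member probe set minus its mean over the 8 libraries (vertical axis), with open symbols for empty and filled symbols for full gland of each cow. CIDEA has the widest spread, over a 6.97-fold range, and the brighter XDH set the narrowest, over a 1.13-fold range.

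The relatives of the droplet proteins did not all have the pattern of PLIN2 and CIDEA. These relatives were named after their values were seen. PLIN3, a perilipin that moves between cytosol and droplets, differed by -0.10, -0.62, 0.04 and -0.32 in cows 1 to 4, again lower mainly in cows 2 and 4. PLIN5, the perilipin of oxidative tissues, had a low signal of 5.91 in empty and 5.85 in full gland. CIDEB, the CIDE protein known from liver, was lower in full gland in all 4 cows, by 0.17 on average, at a low signal of 6.39 in empty and 6.22 in full gland. CIDEC, the CIDE protein typical of fat cells, was at 6.25, 5.97, 6.54 and 6.10 in empty and 5.94, 6.99, 6.37 and 5.96 in full gland, so that it was higher in full gland in cow 2 alone. None of these genes passed the test (limma adjusted p = 0.993 for each).

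A list of other milk fat globule membrane proteins had 11 of its 15 genes measured, and 9 were lower and 2 higher in full gland, with a median of -0.14 against -0.0003 over all probe sets. None passed, and 0 had an unadjusted p under 0.05 in limma. The medians in cows 1 to 4 were -0.06, -0.21, -0.0002 and -0.21. Several of these genes were bright, and of the probe sets with a mean signal above 12, 64.8% were lower, with a median of -0.03. The 3 genes described next were those of the list with the smallest unadjusted p. CD14, a receptor for bacterial lipopolysaccharide found on the globule, differed by -0.35 ± 0.17, and by -0.97 in cow 2. ANXA5, an annexin that binds phosphatidylserine, differed by -0.19 ± 0.08 and was lower in all 4 cows. ABCG2, a transporter that carries riboflavin and drugs into milk, differed by -0.15 ± 0.07 and was also lower in all 4 cows.

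A list of lipid droplet coat and droplet size proteins had 14 of its 20 genes measured, 8 lower and 6 higher in full gland, with a median of -0.10. None passed here either, and 0 had an unadjusted p under 0.05. FITM2, a membrane protein of the endoplasmic reticulum needed for droplet formation, had the most even difference, at -0.15, -0.14, -0.17 and -0.12 in cows 1 to 4. G0S2, an inhibitor of the lipase PNPLA2, differed by -0.36 ± 0.16, with -0.79 in cow 2 and -0.61 in cow 4. LDAF1, which works with seipin where droplets form, differed the other way, by 0.45 ± 0.19, with 0.51 in cow 2 and 1.12 in cow 4.

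Of the butyrophilin family 2 of 8 listed relatives were measured. BTNL9 differed by -0.28 ± 0.13 and was lower in all 4 cows, while MOG, the myelin protein of the same family, differed by 0.16 ± 0.18. Of the other mucins and sialomucins 2 of 9 were measured, and EMCN and CD164 each differed by -0.06. No gene of either list passed the test.

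**Figure D4:**
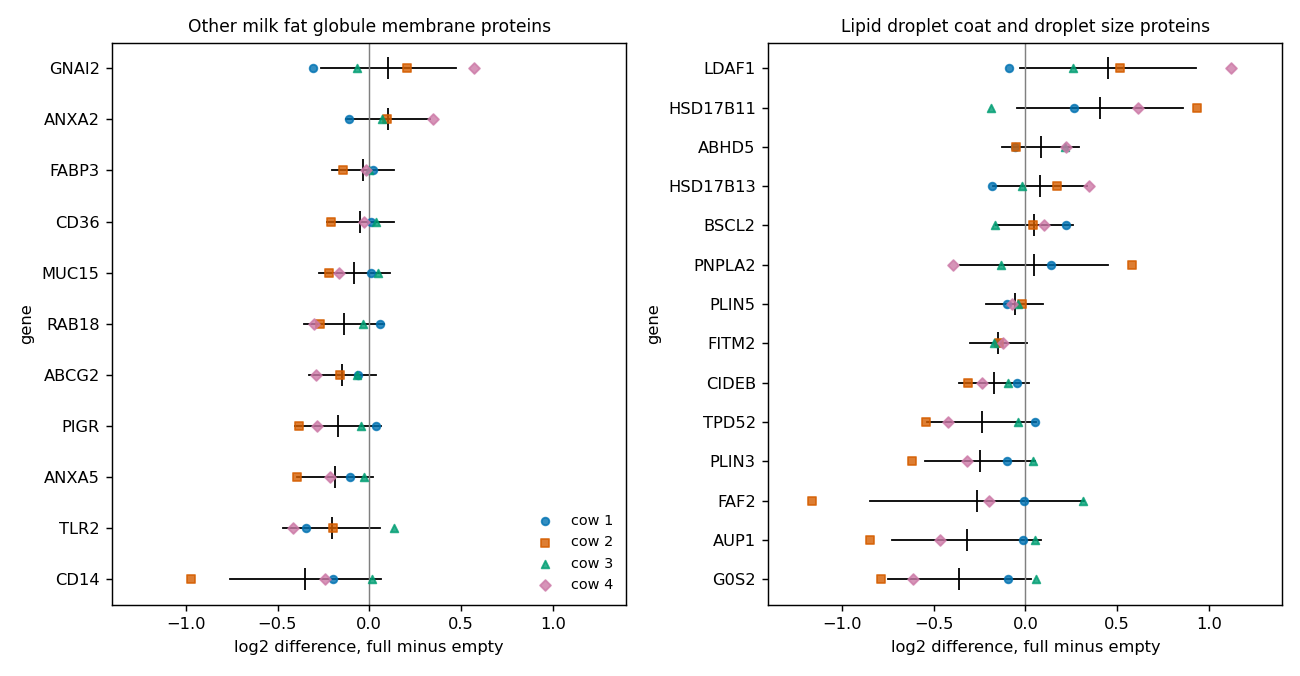
Log2 difference of full minus empty gland (horizontal axis) for the measured genes of both lists (vertical axis), with a symbol for each cow, a tick at the mean and a line for its 95% interval from limma (n = 4 cows). Most means lie left of 0 in the list of globule proteins (9 of 11), and the droplet list is divided (8 of 14).

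The mean signal of several marker lists also differed between full and empty gland, most in cow 4, and no marker passed the test (limma adjusted p = 0.993 or above). In a biopsy, fewer cells of a type and less RNA per cell cannot be told apart. Of the luminal epithelial markers 12 of 13 were measured, and 9 had a higher mean in full gland. Their mean log2 signal was 11.33 to 11.96 in full and 11.29 to 11.52 in empty gland, and it was higher in full gland by 0.36 in cow 2 and 0.43 in cow 4. By the median of its genes the epithelial list differed less, by 0.13 in each of these cows. The milk genes were flat or lower in cow 2, with PAEP at 0.01, LALBA at -0.06 and CSN2 at -0.10. PAEP was the highest of the probe sets tested in every library, with LALBA close below it. So near the top of the scale a difference can hardly show, and these 2 values cannot tell whether the genes changed. KRT18, a keratin of simple epithelia, differed by 1.19 (cow 2) and 1.36 (cow 4), whereas ELF5, a transcription factor of secretory cells, differed by -0.29 and -0.17 there.

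For macrophage and neutrophil markers 8 of 11 were measured and 8 had a higher mean in full gland. Their mean signal was 7.22 to 8.16 in full and 7.35 to 7.59 in empty gland. Fibroblast markers (8 of 8 measured, 6 higher) were at 10.60 to 11.69 in full and 10.66 to 11.15 in empty gland, and myoepithelial markers (8 of 9, 8 higher) at 9.40 to 10.54 and 9.41 to 9.88. T and natural killer cell markers (8 of 9, 6 higher) were at 7.40 to 7.88 in full and 7.43 to 7.79 in empty gland, and B and plasma cell markers (5 of 7, 4 higher) at 7.34 to 7.92 and 7.37 to 7.81. In cow 4 the mean was higher in full gland by 0.71 for macrophage, 0.68 for fibroblast and 0.66 for myoepithelial markers, and in cow 2 by 0.47, 0.19 and 0.26. Cow 1, in which the members were nearly level on average, went the other way, with -0.22, -0.34 and -0.11, and with -0.18 for T and natural killer cell markers. The part of these shifts in the members' differences was not tested.

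Endothelial cells also make XDH, and fat cells make CIDEA and PLIN2. The endothelial list (8 of 8, 3 higher) was at 8.43 to 8.66 in full and 8.55 to 8.70 in empty gland. The adipocyte list (8 of 9, 2 higher) was at 7.40 to 7.46 in full and 7.46 to 7.51 in empty gland. In the cows with lower CIDEA in full gland its difference was -0.08 (cow 2) and 0.001 (cow 4), but its genes did not go together. GPD1, a glycerol phosphate dehydrogenase, differed by 0.09, -0.79, -0.02 and -0.71 in cows 1 to 4, lower in the same cows as CIDEA, while CIDEC was higher by 1.01 in cow 2. The fat cell hormone ADIPOQ had a signal of 5.37 in empty and 5.34 in full gland, close to the lowest value tested, 4.98. The hormone LEP was at 6.13 in empty gland. FABP4, a fatty acid carrier of fat cells on the same list, was bright at 13.11 and 13.04.

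**Figure D5:**
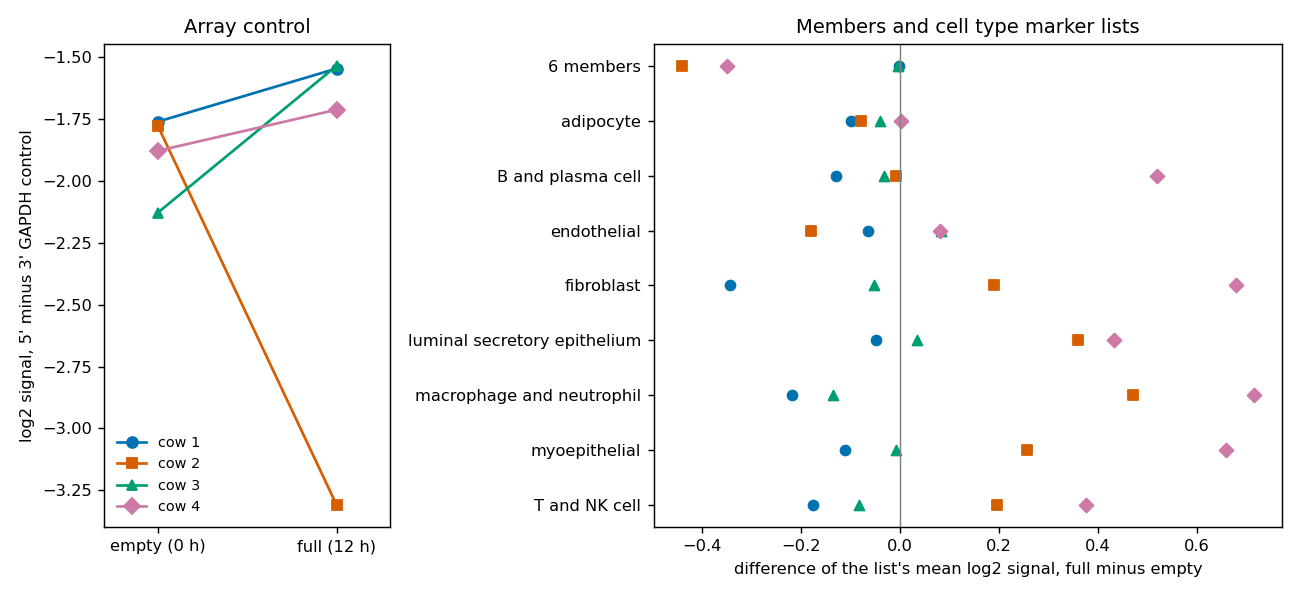
The left panel shows the log2 difference between the 5' and 3' GAPDH controls in each library, which is lowest in the full library of cow 2 (-3.31). The right panel shows the full minus empty difference in mean log2 signal of the 6 members and of 8 marker lists, with a symbol for each cow, and the members are lower in cows 2 (-0.44) and 4 (-0.35) while the mean of the epithelial list is higher there.

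The genes with the profile most like each member were found by Pearson correlation over the 8 arrays among 8955 other genes. The arrays come in pairs from 4 cows and share their libraries, so these values describe likeness only. For BTN1A1 they were KCNK1, a potassium channel (r = 0.986), LMAN2, a cargo lectin of the secretory pathway (0.985), and ZNF75D (0.981). For PLIN2 they were the adenylate cyclase ADCY6 (0.988), the glycosyltransferase ABO (0.979) and the Golgi protein GOLGA5 (0.969). For CIDEA they were the adhesion receptor ADGRF5 (0.990), the mitochondrial ribosomal protein MRPL36 (0.989) and SHISAL2B (0.976). SHISAL2B shared the separation of cows, with 10.36 and 11.72 in empty gland of cows 1 and 3 and 9.63 and 9.33 in cows 2 and 4.

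MUC1 was closest to EDF1, a transcriptional coactivator, SELENOM, a selenoprotein of the endoplasmic reticulum, and AP2S1, a subunit of the clathrin adaptor (r = 0.993, 0.993 and 0.992). EDF1 was at 9.36 in full gland of cow 2 and 9.92 in full gland of cow 4, and at 10.29 to 10.37 in the other 6 libraries, the same 2 low libraries as MUC1. MFGE8 and the brighter XDH set varied little, with SDs of 0.08 and 0.06 over the 8 arrays. MFGE8 was closest to PAG11 (0.928), TMED9 (0.883) and MYD88 (0.879), and XDH to TDRD3 (0.966), NUDT10 (0.956) and ACOX2 (0.934). PAG11 (5.53 to 5.80) and NUDT10 (5.48 to 5.65) had low signals, close to the lowest value tested, 4.98. Among the members themselves, with the brighter set for XDH, PLIN2 and CIDEA were most alike (r = 0.861), followed by XDH and PLIN2 (0.754). BTN1A1 and XDH, whose proteins bind each other, had r = 0.130, and XDH and MFGE8 had r = -0.05. The dimmer XDH set, which varied more (1.39-fold over the arrays against 1.13-fold), was not used in these correlations. The XDH values and the order of the pairs therefore hold for the nearly flat brighter set alone.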

How the data were processed

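The labels give 8 biotin-labelled cRNA samples made from Trizol-extracted total RNA with an oligo(dT) primer. The deposited table holds a log2 value for each probe set in each sample. The submitters' processing notes name RMA, with no version. RMA corrects background, quantile-normalizes and summarises probes, which hides any change that most genes share. Tests left out the 112 platform controls among 24128 probe sets. Symbols came from the platform annotation, and all 6 members kept theirs when compared with RefSeq by entrez number. Coordinates were not used.

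The fit was limma 3.58.1 in R 4.3.3 (lmFit, eBayes, two-sided) with state and cow as fixed terms. The cow is a block because the descriptions name both samples of each cow. Same-cow libraries correlated at r = 0.319 to 0.597 in their deviations from the group means, and those of different cows and states at -0.03 or below. Deviations from a mean of 4 libraries sum to 0, so values above 0 within cows push those between cows below 0 by construction. Each gene with several probe sets was given by the brightest. Named were all members, up to 3 genes per pathway list with the smallest unadjusted p, and the 3 genes most like each member; placeholder symbols were passed over. The script was tested on simulated data. Members and lists were chosen with earlier results of these data known. Alternatives were no block, cow as a random effect, centring on medians, a second quantile normalization, only brighter probe sets, leaving out cows, eBayes with trend and robust prior, array weights, a threshold of 0.10, averaged XDH probe sets and a GAPDH covariate. Figures were drawn with matplotlib 3.10.9.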

Additional observations from a re-analysis of the deposited data

How the results depend on the processing

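Across 92 refits of the 7 member probe sets, none passed an adjusted p of 0.05 (limma, smallest 0.832), and 89 kept the direction. The other 3 turned without cows 2 and 4, where the difference was 0.017 for BTN1A1, 0.0617 for MUC1 and 0.0337 for CIDEA, and the cause was not tested. Median centring and repeated quantile normalization turned no direction. With the GAPDH covariate the differences were -0.25 for MUC1, -0.37 for CIDEA, -0.12 for BTN1A1 and -0.15 for PLIN2. In that fit they were -0.10 for MFGE8 and -0.03 and -0.10 for XDH. With array weights the differences were -0.11 for MUC1, -0.21 for CIDEA, -0.07 for BTN1A1 and -0.07 for MFGE8, smaller by over 1.5 times. Without the replicate block or with cow as a random block the differences were the same by construction, for example -0.44 for CIDEA. They were also unchanged among the brighter probe sets and with the trend and robust prior. These refits are among the 89 but could not turn a direction, and 0 probe sets passed in each. Leaving out each cow in turn gave ranges of -0.20 to -0.08 for BTN1A1, -0.19 to -0.08 for PLIN2, -0.15 to -0.07 for MFGE8, -0.47 to -0.11 for MUC1 and -0.60 to -0.24 for CIDEA. For XDH they were -0.05 to -0.01 and -0.15 to -0.07. The number of members called between cows, 0 in the fit reported, was 1 (CIDEA) at an adjusted p under 0.10, with median centring, among the brighter probe sets, with an intensity trend and robust prior and with array weights, and 0 to 1 with a cow left out. CIDEA also passed with the GAPDH covariate (limma F-test adjusted p = 0.043) and without cows 2 and 4 (0.0292), which compares cows 1 and 3 alone. The cause was not tested. Over all probe sets that test called 105, which became 1820 without cows 2 and 4, 208 with median centring, 248 with the trend, 286 with array weights, 29 without cow 1, 27 without cow 3 and 13 without cow 4. All members but CIDEA (11.58) had a mean signal above 12, and the array range ends near 14.43. With 4 pairs the 95% intervals are as wide as -0.95 to 0.08 for CIDEA.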
